A study of Rattus norvegicus with 50 samples.

Results

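Cytosolic ribosomal protein genes, the genes whose products build the large and small subunits of the ribosome outside mitochondria, were followed in the mammary glands of 50 female Sprague-Dawley rats. They were taken as every gene with a probeset of its own whose symbol is Rpl or Rps with a number, or Rplp0, Rplp1, Rplp2 or Rpsa, without mitochondrial ribosomal proteins and ribosomal S6 kinases. The rule gave 83 genes of the large and 44 of the small subunit among 18166 genes on the array. Of these, 56 carry a standard name and 71 a name with an added l for a copy or paralogue, such as Rps12l3. The array annotation joined 575 probesets to several symbols at once, and 19 further ribosomal protein symbols, among them Rps18, Rpl38 and Rplp1, stood on such probesets alone and are not analysed here.

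The rats were treated from postnatal day (PND) 1 to PND 180, through their dams' milk until weaning at PND 28 and by oral gavage afterwards, and were sacrificed at PND 181. They received DEP (diethyl phthalate), MPB (methyl paraben), TCS (triclosan), all of these chemicals as a mixture (MIX) or the olive oil vehicle alone (OIL), and in each treatment 5 rats were parous, having been mated at PND 97, and 5 were nulliparous. RNA of the fifth caudal mammary glands was extracted with a Zymo kit for 24 rats and a Promega kit for 26 rats. Each DEP group held 4 Zymo rats and 1 Promega rat, and each other group held 2 Zymo rats and 3 Promega rats. The labels give the Zymo rats 1 batch name and the Promega rats the other, so kit and batch cannot be told apart. All rats are of 1 laboratory colony, and whole glands with their fat, epithelium, vessels and any lymph node tissue were used, so fewer cells of a type and less RNA per cell cannot be told apart.

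The ribosome reads messenger RNA on its small subunit and joins amino acids on its large subunit, and each ribosomal protein is made in the amount that assembly needs. In mammals the messages of these genes begin with a C followed by a run of pyrimidines, the 5′ terminal oligopyrimidine (TOP) tract, through which the kinase mTOR and the RNA-binding protein Larp1 set their translation. Many ribosomal protein genes, such as Rplp0 and Rpl13a, serve as reference genes in expression studies because their messages are abundant in nearly all cells, and the rat genome holds many processed copies of them.

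The start sites of 99 of the genes, 46 with a standard name and 53 copies or paralogues, were found in RefSeq promoters of the GRCr8 build, each of 300 bases with 250 before the annotated start. A C followed by 4 pyrimidines, in which each of the 4 bases is C or T, stood exactly at the annotated start in 16 of 46 genes with a standard name (34.8%), in 1 of 53 copies and paralogues (1.89%) and in 722 of 27457 RefSeq genes (2.63%). CCGGAAG on either strand, the core of the binding motif of ETS family factors, was in the promoters of 13 of the 46 (28.3%), 5 of the 53 (9.43%) and 9.22% of all genes. AAGATGGC on either strand, the core of the YY1 motif, was in 5 of the 46 (10.9%), 3 of the 53 (5.66%) and 3.44% of all genes. A match is a description of these letters and not of binding. The sequences below are 40 bases before and 20 bases from the annotated start, with capitals for the pyrimidine run that begins at the start. The first 5 genes have such a start and the last 2, Rps16 and Rpl24, do not. The first 5 are shown because their differences between RNA kits, described next, run from 0.15 (Rpl39) to 5.02 (Rps27), and the last 2 because theirs are large, 3.93 (Rps16) and 3.70 (Rpl24).
Rps27 (chr2:177964587-177964646, minus strand): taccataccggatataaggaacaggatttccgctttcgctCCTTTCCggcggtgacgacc
Rps3a (chr2:173827023-173827082, minus strand): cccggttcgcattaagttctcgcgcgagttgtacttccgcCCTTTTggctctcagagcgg
Rpl39 (chrX:121195877-121195936, minus strand): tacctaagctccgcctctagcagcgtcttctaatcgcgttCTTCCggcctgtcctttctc
Rplp0 (chr12:46718371-46718430, minus strand): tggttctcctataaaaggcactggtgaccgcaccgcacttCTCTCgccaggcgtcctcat
Rpl19 (chr10:83519024-83519083, plus strand): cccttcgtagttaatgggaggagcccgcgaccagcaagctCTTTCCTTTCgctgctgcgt
Rps16 (chr1:92770618-92770677, plus strand): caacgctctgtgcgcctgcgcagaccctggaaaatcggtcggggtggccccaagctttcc
Rpl24 (chr11:58128386-58128445, minus strand): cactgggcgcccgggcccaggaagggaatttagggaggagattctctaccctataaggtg

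Most ribosomal protein genes had a higher signal in Zymo than in Promega rats. Signals are log2 values, on which a difference of 1 is a doubling. After an intensity filter 105 of the genes were tested and 22 were not, with 54 with a standard name and 51 copies or paralogues, among 13413 genes tested in all. Of the 105, 94 were higher and 6 lower in Zymo than in Promega rats at an adjusted p under 0.05 (limma, group and kit as terms), against 39.9% of all genes higher and 45.0% lower, and 84.9% in either direction. The median difference of the 105 genes was 0.99, against -0.04 for all genes tested. A difference of at least 1 was found in 51 of the 105 genes (48.6%) and in 13.9% of all genes, and one of at least 2 in 23 genes (21.9%) and in 3.23% of all genes. In 63 of the 105 every Zymo rat lay above every Promega rat, as in 13.4% of all genes, and in 0 of them every Promega rat lay above every Zymo rat, as in 18.4% of all genes. Fitted after group, the kit took a median of 74.8% of a ribosomal protein gene's variance over the rats, and the 10 groups, fitted after kit, took 2.92%. For all genes these medians were 52.7% and 9.47%. Variance that kit and group share, as kit numbers differ in DEP groups, is in neither value.

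**Figure D1:**
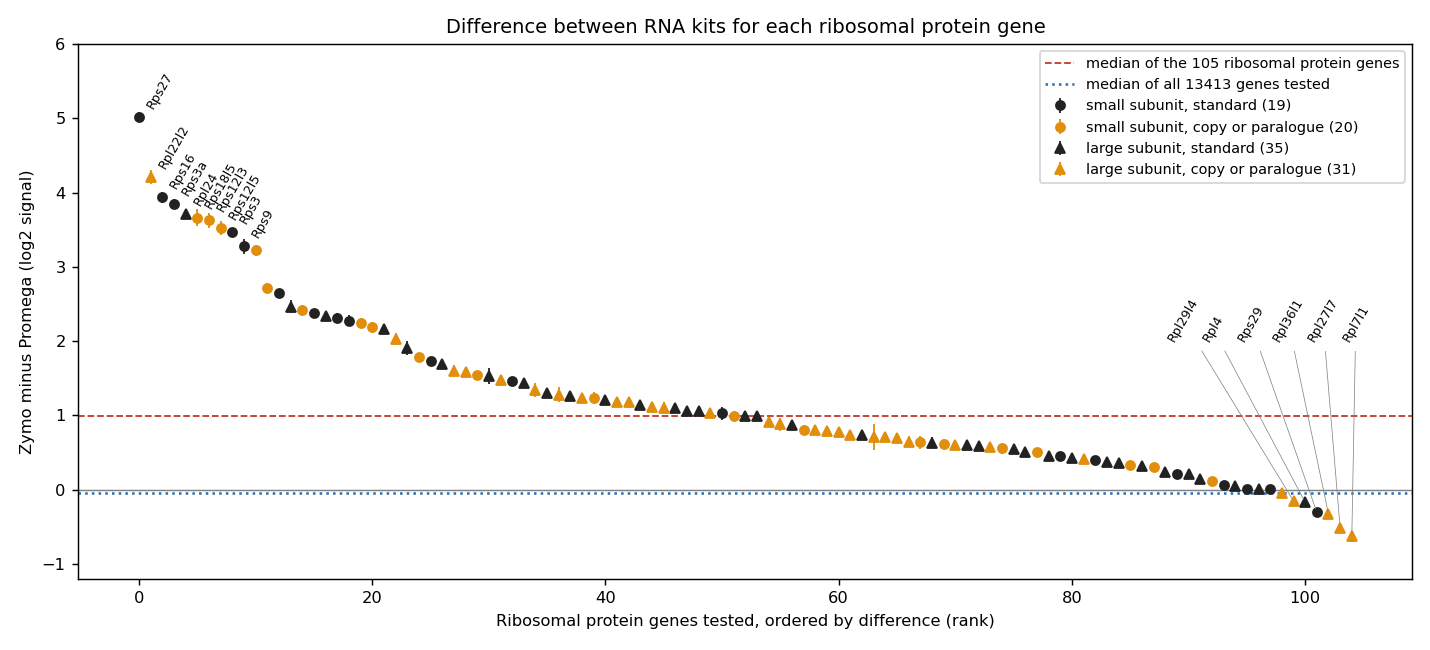
Difference between Zymo and Promega rats (y axis, log2 signal, error bars are SE) of each of the 105 ribosomal protein genes tested, ordered by size (x axis, rank), with colour for gene class and shape for subunit. The median of the genes, 0.99, lies above the median of all genes tested, -0.04, and Rps27 stands highest at 5.02.

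Rps27, a zinc-binding protein of the small subunit, had the largest difference when each gene was read on its brightest probeset. Its signal was lowest 9.83, median 10.23 and highest 10.77 in Zymo rats, against lowest 4.65, median 5.23 and highest 5.89 in Promega rats, so that the kits did not overlap. The fitted difference was 5.02 ± 0.07 (SE, n = 50; adjusted p = 3.18e-42, limma). Rps16, a small subunit protein at the decoding side, had a lowest signal of 9.89, a median of 10.46 and a highest of 10.89 in Zymo rats, and 6.0, 6.52 and 7.06 in Promega rats. Its difference was 3.93 ± 0.07 (SE, adjusted p = 6.48e-39), again with no overlap. Rps3a, another small subunit protein, ranged from 12.00 to 12.77 in Zymo rats and from 7.86 to 9.09 in Promega rats, a difference of 3.85. Among large subunit genes Rpl24, whose protein sits at the interface of the subunits, was the furthest apart of those with a standard name, with 13.01 to 13.61 in Zymo rats, against 9.29 to 10.07 in Promega rats and a difference of 3.70 ± 0.06 (SE, adjusted p = 2.23e-41).

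The other genes among the 10 with the largest increases were Rpl22l2 (4.21), Rps18l5 (3.66), Rps12l3 (3.63), Rps12l5 (3.52), Rps3 (3.47) and Rps9 (3.28). Rps3 lies at the entry of the messenger RNA channel, and Rps9 helps to hold the decoding site in shape. Each of these 6 genes had every Zymo rat above every Promega rat. The median signal in Promega rats was under the intensity limit of 6.32 for 16 of the 105 genes, Rps27, Rpl22l2, Rps9 and Rps12l5 among them. Of the 16, 15 were among the 94 higher ones. Among all 13413 genes tested, 851 had such a median, and 607 of these were called higher. For such genes the Promega signal lies among the dimmest 30% of the values of all 18166 genes. The filter asked for a group mean over 6.32 in at least 1 group, whatever its kits. Rpl22l2, Rps9 and Rps9l1 had means over all rats of 6.22, 6.08 and 5.56, so they passed in only some groups. Their medians in Promega rats were 4.13, 4.54 and 4.48, and every Promega rat lay under 6.32 for each of them. A group mean over 6.32 was thus reached only through Zymo rats, and all of these genes are counted among the 94 higher ones. The DEP groups hold the most Zymo rats, but which groups admitted these genes was not tested.

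The 6 genes that were lower in Zymo rats moved far less. Rpl7l1, a relative of Rpl7 that takes part in the assembly of the large subunit, ranged from 9.25 to 10.68 in Zymo rats, against 10.24 to 11.06 in Promega rats, a difference of -0.63 ± 0.08 (SE, adjusted p = 4.23e-10, limma). The others were Rpl27l7 (-0.52), Rpl36l1 (-0.33), Rps29 (-0.30), Rpl4 (-0.17) and Rpl29l4 (-0.15). All 6 overlapped between the kits. With each array centred on its median, the median of all genes moved up by 0.18, 98 genes were higher and 4 lower, and the values of Rpl4 and Rpl29l4 turned to 0.01 and 0.03 and were no longer called. Calls in the higher direction then made up 56.9% of the calls over all genes, against 47% as deposited, and 96.1% against 94% among ribosomal protein genes.

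Small subunit genes had a median difference of 1.54 (39 genes) and large subunit genes of 0.84 (66 genes). A difference of at least 2 was found in 17 of the 39 small subunit genes and in 6 of the 66 large subunit genes. Of genes with a standard name and of copies or paralogues most were higher, with 48 higher and 2 lower of 54 in the first and 46 higher and 4 lower of 51 in the second, and medians of 1.01 and 0.91. Among genes with a standard name and a known start, the 16 with a pyrimidine start had a median difference of 0.93 and ranged from 0.15 (Rpl39) to 5.02 (Rps27), while 28 with another start had a median of 0.81 and ranged from -0.17 (Rpl4) to 3.93 (Rps16). These medians are descriptions of genes that share the same rats, and no test was made between such sets.

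The sign of the kit difference was the same in all 10 groups for 96 of the 105 genes, 91 of them higher and 5 lower. The same count over all genes is not given here, so it cannot be called particular to these genes. Taken group by group, the median of the 105 genes differed by 0.85 (DEP nulliparous) to 1.05 (MIX parous). Without the DEP rats, in which kit numbers differ, the median difference was 1.03. There 100 genes were called, as many as in all rats. The share over all genes was 84.9% in all rats. It is not given here for the fit without DEP rats, so that count cannot be called particular to these genes. The cell type scores, which are mean centred log2 signals of marker lists, overlapped between kits. The adipocyte score had a median of 0.03 in Zymo rats and 0.05 in Promega rats, the epithelial score 0.17 in Zymo rats and 0.13 in Promega rats, and the lymphoid score -0.52 in Zymo rats and -0.69 in Promega rats. The skeletal muscle score was -0.17 in Zymo rats and -0.64 in Promega rats. All measured markers of the 6 cell type lists passed the intensity filter, among them 10 of 10 for adipocytes and 10 of 10 for mammary epithelium.

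**Figure D2:**
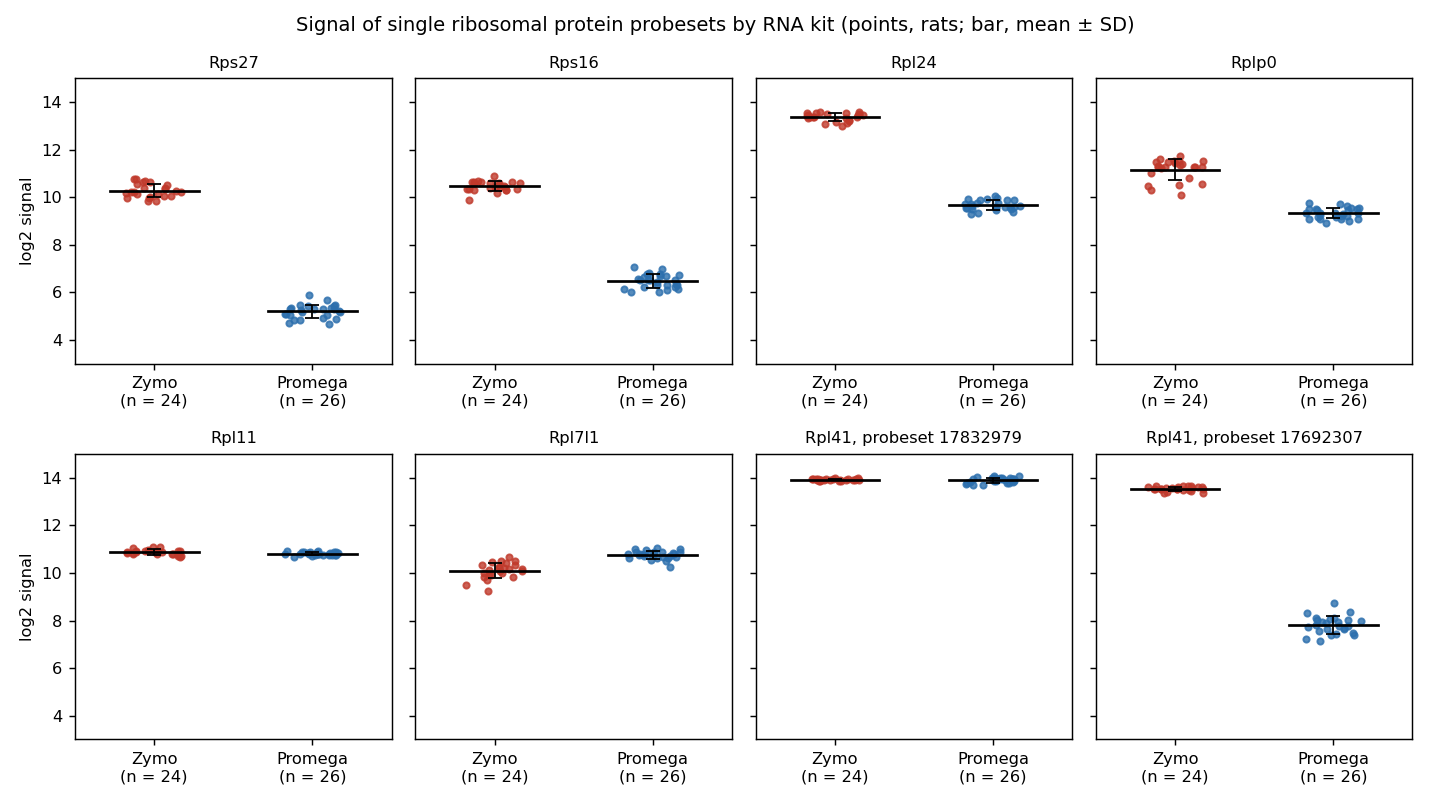
Signal (y axis, log2) of 6 ribosomal protein genes and of both Rpl41 probesets in each of 24 Zymo and 26 Promega rats (points), with mean and SD. Rps27, Rps16, Rpl24, Rplp0 and the second Rpl41 probeset do not overlap between kits, while Rpl11 and the first Rpl41 probeset differ by 0.05 and 0.01.

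Genes used as references in expression studies differed among themselves. Rplp0, the base of the ribosomal stalk that recruits translation factors, ranged from 10.11 to 11.74 in Zymo rats and from 8.94 to 9.75 in Promega rats, with no overlap and a difference of 1.90 ± 0.09 (SE, adjusted p = 7.95e-23, limma). Rplp2, a further stalk protein, differed by 0.60 and Rpsa, the small subunit protein also known as the laminin receptor precursor, by 0.45. Rpl13a, which also serves in the interferon response of human cells, differed by 1.21 ± 0.04 (SE, adjusted p = 9.46e-31), with 13.28 to 13.59 in Zymo rats and 11.67 to 12.39 in Promega rats. Rpl19, a large subunit protein, differed by only 0.37, and its kits overlapped, at 12.94 to 13.45 in Zymo rats and 12.77 to 13.16 in Promega rats. Rps19, which human patients with Diamond-Blackfan anaemia often carry in mutated form, differed by 1.74.

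For 5 genes the kits could not be told apart by the test. Rpl11, which with Rpl5 and 5S ribosomal RNA binds Mdm2 when ribosome assembly fails, had 10.68 to 11.10 in Zymo rats and 10.69 to 10.92 in Promega rats, a difference of 0.05 ± 0.03 (SE, adjusted p = 0.0904). Rps6, the substrate of the ribosomal S6 kinases, differed by 0.01 (adjusted p = 0.843), with medians of 6.26 in Zymo rats and 6.29 in Promega rats that lay under the intensity limit. The others were Rpl41 (0.01), Rps12 (0.00) and Rpl35l2 (-0.05). Rpl5 itself was among the 22 genes that did not pass the intensity filter.

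The value of a gene depended on its probeset. Of the 19 genes with several probesets, 9 had kit differences that spanned over 0.5 and 4 that spanned over 1. Rpl41, which encodes the shortest ribosomal protein, was the extreme case. Its brighter probeset, the one used, had a median of 13.92 in Zymo rats and 13.94 in Promega rats, a difference of 0.01. Its other probeset ranged from 13.37 to 13.67 in Zymo rats and from 7.13 to 8.73 in Promega rats, a difference of 5.70 ± 0.08 (SE) that was above the 5.02 of Rps27. Rpl23a differed by 0.73 on the brighter and 2.42 on the dimmer probeset, and Rpl9 by 1.06, 1.74 and 2.13 on its 3 probesets. By contrast the 6 probesets of Rpl39 all lay between 0.07 and 0.16. Within the 22 families of a gene and its named copies with 2 or more tested, the kit difference spanned over 1 in 10 and over 2 in 7. Rps12 differed by 0.00, Rps12l2 by 2.72, Rps12l3 by 3.63 and Rps12l5 by 3.52. Rpl7 differed by 2.34 ± 0.06 (SE), against -0.63 for Rpl7l1, and Rps17l2 by 2.41, against 0.12 for Rps17l1. Probes of near-identical copies may bind each other's messages, so that the signal of a single copy is uncertain.

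Genes of related function were set beside them from lists chosen with results of these data known. Mitochondrial ribosomal proteins, which serve the separate ribosome of that organelle, had a median kit difference of 1.26, with 63 higher and 7 lower of 71. Respiratory chain subunits had a median of 1.26, with 83 higher and 3 lower of 89. Translation factors and other TOP genes had a median of 0.99, with 13 higher and 3 lower of 16, and they included Eef1b2 (2.69), an exchange factor of elongation, and Eef2 (-1.25), the translocase. Ribosome assembly genes had a median of 0.34, with 15 higher and 9 lower of 26. Fau, whose product ends in the small subunit protein S30, differed by 3.20, while Rack1, a scaffold on the small subunit, differed by 0.08 and did not pass. Genes of mTOR and Myc control went the other way, with 2 higher and 9 lower of 12 and a median of -1.57. Among these were Mtor (-1.69), its partners Rptor (-1.62) and Rictor (-2.04), and Larp1 (-1.86), which holds TOP messages back. Eif4ebp2 (-2.11), Tsc1 (-1.77) and Tsc2 (-1.52) of the same list were lower too, so these values give no direction of mTOR activity.

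**Figure D3:**
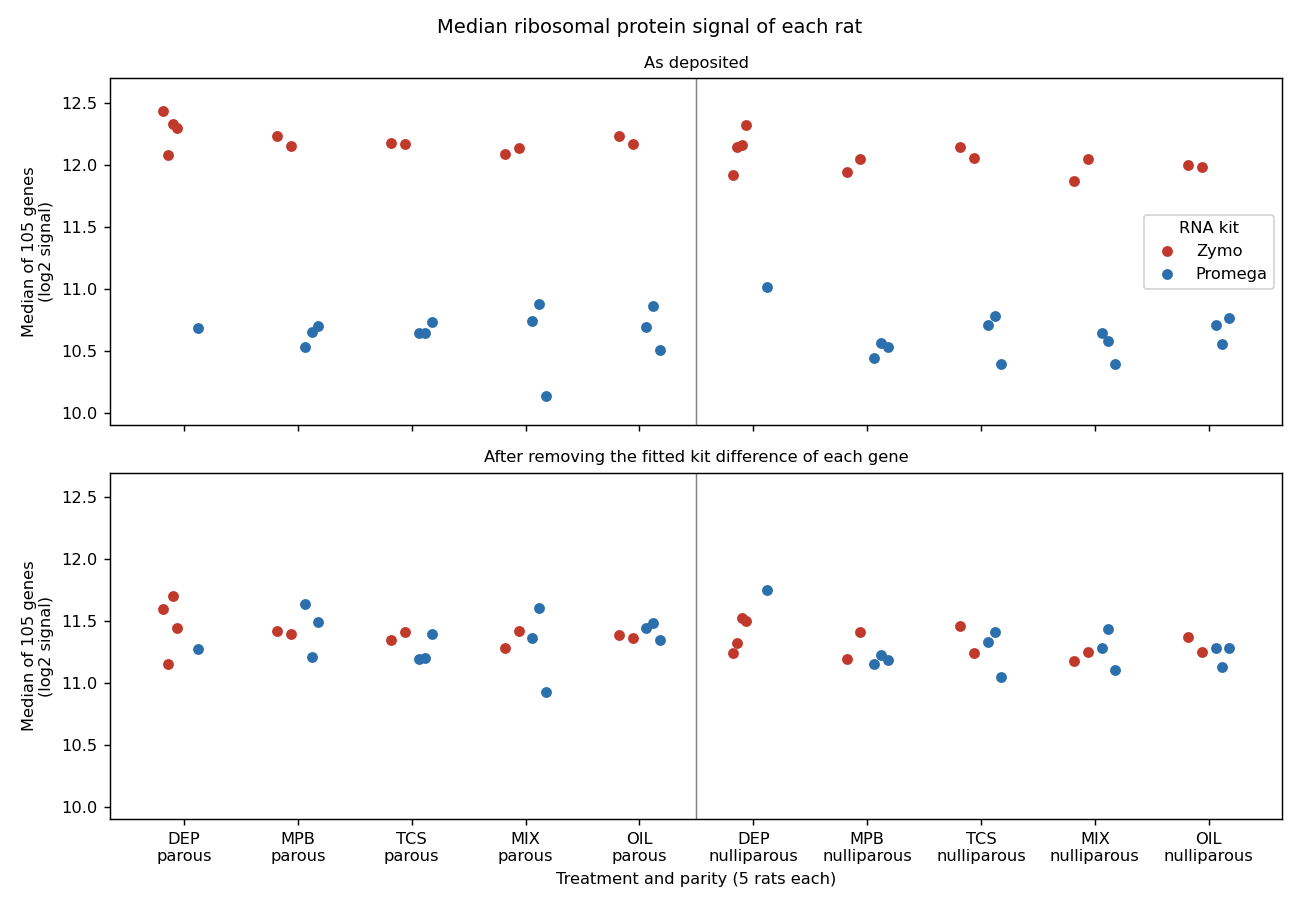
Median log2 signal of the 105 ribosomal protein genes (y axis) of each rat, by treatment and parity (x axis, 5 rats each), coloured by RNA kit, as deposited (upper panel) and after the fitted kit difference of each gene was removed (lower panel). As deposited, the lowest Zymo rat, at 11.87, lies above the highest Promega rat, at 11.01, and the lower panel shows overlapping groups.

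The exposures were then compared within each parity, 5 treated and 5 OIL rats at a time, with kit as a term and calls made at an adjusted p under 0.25 together with a 1.5-fold change or more. As deposited, the median ribosomal protein signal of a rat ranged from 11.87 to 12.44 over all Zymo rats and from 10.14 to 11.01 over all Promega rats. After the kit difference was removed, DEP parous rats ranged from 11.15 to 11.71 and OIL parous rats from 11.35 to 11.49. In the same way DEP nulliparous rats ranged from 11.24 to 11.75 and OIL nulliparous rats from 11.13 to 11.37. The groups overlapped in both parities.

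In DEP nulliparous rats 1 of the 105 genes passed, against 2.07% of all genes in either direction and 0.0820% in the higher direction. Without the fold limit 3 genes had an adjusted p under 0.25, against 3.65% of all genes. The 1 gene was Rps18l5, a locus named as a copy of the small subunit gene Rps18. Its signal was 9.98, 10.14, 10.31 and 10.57 in the 4 Zymo rats and 6.93 in the Promega rat of the DEP group. In OIL nulliparous rats it was 9.61 and 9.91 in the Zymo rats and 5.62, 5.62 and 6.02 in the Promega rats. Within each kit every DEP rat lay above every OIL rat, and the fitted change was 0.74 ± 0.18 (SE, adjusted p = 0.146, limma). Without DEP_null_29, the only Promega rat of the DEP group, the change was 0.49 and no longer passed, nor did it pass without OIL_null_430 (0.90) or OIL_null_431 (0.74). Without DEP_null_29 only 1 of all 13413 genes passed, and without either of these OIL rats 0 did. The change of Rps18l5 in DEP parous rats was 0.23 (adjusted p = 0.746). Rps3a had a change of 0.51 (adjusted p = 0.124) in nulliparous rats and Rpl37l4 of 0.39 (adjusted p = 0.215), both under the fold limit. Rps3a had 12.53 to 12.68 in DEP Zymo rats and 12.00 and 12.11 in OIL Zymo rats. Rplp0 had the lowest value of the 105 genes, with a change of -0.55 (adjusted p = 0.293). Its signals were 10.29, 10.53, 10.56 and 11.28 in DEP Zymo rats and 11.27 and 11.52 in OIL Zymo rats. The Promega rats of both groups also enter these fits, and their values for Rps3a and Rplp0 are not given here. The median change over the genes was 0.08, against -0.04 for all genes, with 74 positive and 31 negative.

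In DEP parous rats 0 of the 105 genes passed, against 5.24% of all genes, and 7 had an unadjusted p under 0.05 (6.67%, against 16.6% of all genes). Without the fold limit 2 had an adjusted p under 0.25, against 11.8% of all genes. The smallest p belonged to Rpl36l1 (0.37 ± 0.12, SE, adjusted p = 0.187, limma), Rps17l3 (0.40, adjusted p = 0.199) and Rpl36 (0.22, adjusted p = 0.25). The median change was 0.05, against -0.04 for all genes, with 71 positive and 34 negative. Rps16 had 10.34, 10.61, 10.66 and 10.89 in DEP Zymo rats and 7.06 in the DEP Promega rat, against 10.32 and 10.66 in OIL Zymo rats and 6.0, 6.14 and 6.31 in OIL Promega rats. Its fitted change was 0.42 (adjusted p = 0.286), and the Promega rat of the DEP group lay above all OIL Promega rats while the Zymo rats overlapped. In nulliparous rats Rps16 had 10.35, 10.44, 10.66 and 10.67 in DEP Zymo rats and 6.78 in the DEP Promega rat, against 10.37 and 10.61 in OIL Zymo rats and 6.35, 6.54 and 6.57 in OIL Promega rats. Its fitted change there was 0.13 ± 0.12 (SE, adjusted p = 0.661, limma), with the same kind of overlap among Zymo rats. Markers of mammary epithelium were lower in DEP than in OIL rats, 6 of 10 in parous rats (median -1.07) and 4 of 10 in nulliparous rats (median -0.57), as were 3 of 9 and 4 of 9 macrophage markers. The T and NK cell markers had medians of 1.18 in parous rats and 1.10 in nulliparous rats, with 0 of 13 past the threshold in either. The part of these cell types in the changes of single ribosomal protein genes was not tested.

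The DEP comparisons depended on the kit term. Without it, the median change of the 105 genes was 0.46 in parous rats and 0.47 in nulliparous rats, with 95 and 94 of the genes positive, while the median over all genes was -0.06 and -0.08. DEP groups hold 4 Zymo rats and OIL groups 2, so that the kit difference enters this value. Among Zymo rats alone, 4 DEP and 2 OIL, the median change was 0.04 in parous rats and 0.00 in nulliparous rats. In the other comparisons the kits are balanced and the term moves no value.

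**Figure D4:**
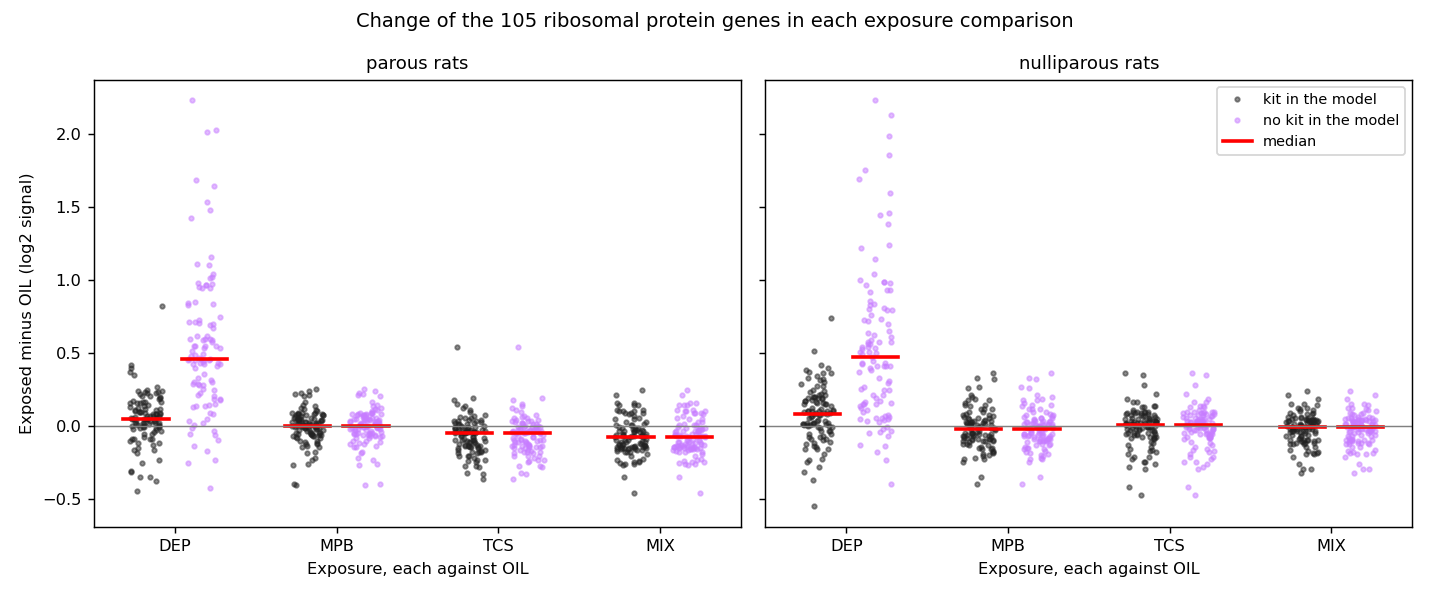
Change of each of the 105 ribosomal protein genes (points; y axis, exposed minus OIL, log2 signal) for each exposure in parous and nulliparous rats, with kit in the model (dark) and without it (light), and the medians (bars). Only the DEP comparisons move, with medians of 0.05 and 0.08 with the kit and 0.46 and 0.47 without it.

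For MPB, TCS and MIX no gene of the array passed (0.00% of all genes in each of the 6 comparisons), and so 0 of the 105 ribosomal protein genes did (limma). In parous rats, unadjusted p-values under 0.05 were found for 2 of the 105 genes with MPB (1.9%, against 1.57% of all genes), 1 with TCS (0.952%, against 1.44%) and 2 with MIX (1.9%, against 3.07%). In nulliparous rats they were found for 7 with MPB (6.67%, against 5.54%), 8 with TCS (7.62%, against 7.89%) and 2 with MIX (1.9%, against 2.19%), so that these counts lay near the rate over all genes. The median changes were 0.00 for MPB, -0.05 for TCS and -0.08 for MIX in parous rats, and -0.02 for MPB, 0.01 for TCS and -0.01 for MIX in nulliparous rats. Over all genes, in the same order, the medians were -0.002, -0.006 and -0.004 in parous rats and 0.027, 0.005 and 0.003 in nulliparous rats. In parous rats the changes were positive for 52 and negative for 53 genes with MPB, positive for 24 and negative for 81 with TCS, and positive for 26 and negative for 79 with MIX. In nulliparous rats they were positive for 44 and negative for 61 with MPB, positive for 54 and negative for 51 with TCS, and positive for 45 and negative for 60 with MIX. The genes share the same rats, so these counts are not independent and were given no test. Each median change was within 0.15, the SD between single rats in the median of these genes. That SD is not the error of a difference between group means. The smallest p in each comparison belonged to Rpl34l1 in MPB parous rats (-0.40), Rpl36 in MPB nulliparous rats (0.32), Rpl7 in TCS parous rats (-0.28), Rps4y2 in TCS nulliparous rats (-0.42), Rpl34l1 in MIX parous rats (-0.35) and Rps12l4 in MIX nulliparous rats (0.24). All comparisons within a parity share their OIL rats. The lowest adjusted p of the 6 comparisons was 0.603, for Rps4y2, Rps9l1 and Rpl29l1 in TCS nulliparous rats.

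A difference between the parities in the response of a gene was looked for with an interaction term over 20 rats per chemical. For DEP, MPB, TCS and MIX 0 of the 105 genes had an adjusted p under 0.25, as did 0.00% of all genes in each (limma). Unadjusted p-values under 0.05 were found for 1 gene with DEP (0.952%, against 1.92% of all genes), 3 with MPB (2.86%, against 3.06%), 6 with TCS (5.71%, against 3.62%) and 1 with MIX (0.952%, against 1.74%). The lowest was that of Rps12l4 with MPB, where the change was lower in parous than in nulliparous rats by 0.38 ± 0.12 (SE, unadjusted p = 0.00574).

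Parous and nulliparous glands were compared over all 50 rats with treatment and kit as terms. No ribosomal protein gene passed both thresholds, against 0.708% of all genes, and the changes of the 105 genes ranged from -0.17 to 0.28 with a median of 0.04, against -0.01 for all genes. Without the fold limit 27 of the 105 had an adjusted p under 0.25, which is near the share over all genes, 28.0%. Of the 27, 23 were higher in parous rats, and the direction of such calls over all genes is not given here. Rpl36l1, a locus named as a copy of the large subunit gene Rpl36, had the smallest p. Its signal was lowest 8.02, median 8.39 and highest 8.66 in parous Zymo rats and 7.88, 8.18 and 8.42 in nulliparous Zymo rats. In Promega rats it was 8.35, 8.64 and 8.86 in parous and 8.10, 8.48 and 8.72 in nulliparous animals, a fitted difference of 0.19 ± 0.05 (SE, n = 50; adjusted p = 0.00735, limma) with overlapping groups. Rps18l3 (0.13, adjusted p = 0.0477) and Rps27 (0.21, adjusted p = 0.0515) followed. In the same fit 1 of 13 T and NK cell markers (Cd8a) and 2 of 9 B and plasma cell markers (Jchain and Mzb1) were higher in parous rats past both thresholds. The median differences of these lists were 0.46 and 0.56, and their part in the ribosomal protein values was not tested.

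Some glands held much more lymphoid signal than others, with lymphoid scores from -1.33 to 2.05. In a fit with group and kit as terms, 16 of the 105 genes rose and 3 fell with the score at an adjusted p under 0.05, against 48.1% of all genes in either direction and 19.8% rising (limma). The median size of the slope was 0.03 per unit of score, against 0.07 for all genes. Rpl37a had the steepest slope, 0.15 ± 0.05 (SE, adjusted p = 0.00664), followed by Rpl7l1 (0.10), Rpl8l1 (0.09), Rpl8 (0.09) and Rpl24 (0.08), all of the large subunit. Rpl10l1 (-0.11), Rps4y2 (-0.09) and Rpl34l1 (-0.09) fell. With the adipocyte score 15 of the 105 genes fell and 0 rose, against 32.9% of all genes in either direction and 15.9% rising, and the median slope size was 0.12, against 0.20 for all genes. Rpl37a (-0.78), Rpl15 (-0.43), Rplp0 (-0.43), Rpl7l1 (-0.38) and Rpl8l1 (-0.37) had the largest called slopes. With the epithelial score 6 rose and 4 fell, against 41.0% of all genes in either direction and 25.8% rising, led by Rps9 (0.43), Rpl10l1 (0.41) and Rps4y2 (0.35) among those that rose and Rpl30 (-0.23) and Rpl30l1 (-0.23) among those that fell. A gene's slope on a score is a relation across glands, in which the 3 scores share rats and arrays.

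Once group and kit were removed, the residual SD of the 105 genes had a median of 0.20, close to the 0.22 of all genes tested, and 65 of the 105 lay under the median of all genes. Rpl39 (0.07), Rpl11 (0.08), Rpl41 (0.08), Rps20 (0.08) and Rps2 (0.09) had the lowest residual SD. Rpl3l (0.62), Rps18l5 (0.41), Rpl37a (0.35), Rps12l3 (0.35) and Rps12l5 (0.34) varied most. The highest mean signals were those of Rpl41, Rps29, Rpl23, Rpsa and Rps20, and the lowest among the tested genes those of Rps9l1, Rpl3l, Rps9, Rpl22l2 and Rps6, though signals of different probesets cannot be ranked as amounts of message.

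Rpl3l, which replaces Rpl3 in the ribosomes of heart and skeletal muscle, varied most, and its signal was high in 4 rats. It was 8.52 in DEP_null_27, 8.56 in DEP_par_41, 7.74 in TCS_par_243 and 7.73 in OIL_null_431, all of the Zymo kit. The other 20 Zymo rats lay between 5.63 and 6.18, and the 26 Promega rats between 5.15 and 6.0. The same 4 rats had the highest skeletal muscle scores, 3.41 to 4.48, against -0.48 to 0.51 in the other Zymo rats and -0.87 to 1.45 in Promega rats. The slope of Rpl3l on that score was 0.50 ± 0.03 per unit (SE, adjusted p = 1.92e-18, limma), and it was the only one of the 105 genes with an adjusted p under 0.05, against 1.04% of all genes. Without the 4 rats the slope was 0.15 ± 0.06 (SE, adjusted p = 0.123), so that the relation rests on them. Rpl3 was 12.96 in DEP_null_27, the lowest of the Zymo rats, and 13.32 to 13.50 in the other 3, within the Zymo range of 12.96 to 13.56. This relation was looked for after the values of Rpl3l had been seen.

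**Figure D5:**
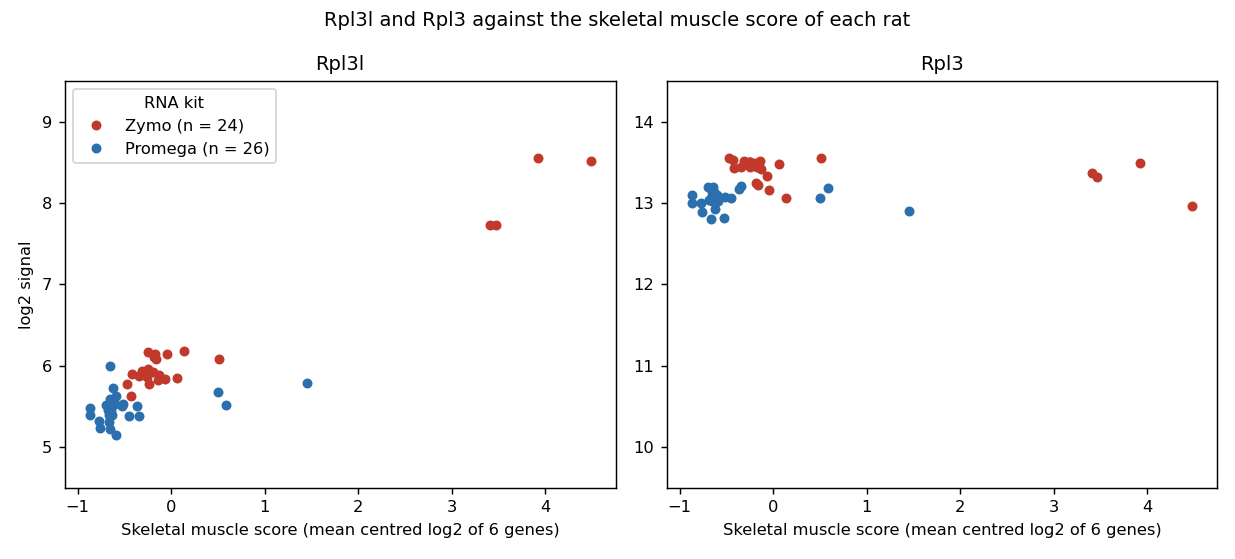
Log2 signal (y axes) of Rpl3l (left) and Rpl3 (right) against the skeletal muscle score (x axis, mean centred log2 signal of 6 muscle genes) in each of 24 Zymo and 26 Promega rats. The 4 rats with a score of 3.41 or more hold Rpl3l signals of 7.73 to 8.56, above every other rat.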

How the data were processed

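RNA of 50 rat mammary glands was hybridised to Affymetrix GeneChip Rat Gene 2.0 ST arrays, 1 per rat. According to the authors, the deposited log2 values were made by robust multi-array averaging (RMA, which corrects background, normalises quantiles and summarises probes) with Affymetrix Expression Console. R 3.0.2 is also in the submitters' notes. Values ranged from 2.79 to 14.47. Arrays have no read depth, and their number limits the precision. The article describes an adjustment for the kit, but the deposited values still differed by kit, so the kit was a term in the fits. The lowest root mean square difference between any pair of arrays was 0.18, so none was a copy.

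Of 36685 probesets, 18511 carried 1 symbol in the platform annotation, 575 several and 17599 none. The brightest probeset of a gene was used. Genes whose mean passed the 30th percentile (6.32) in at least 1 group were tested with limma 3.58.1 (lmFit, eBayes, Benjamini-Hochberg adjustment over all 13413 genes) in R 4.3.3 . The kit was fitted with group over 50 rats, each exposure with kit over 10 rats, and parity with treatment and kit over 50 rats. Thresholds were an adjusted p under 0.05 for kit and scores, and under 0.25 together with a 1.5-fold change (0.58 in log2) for exposures and parity. Symbols of 125 of the ribosomal protein genes matched RefSeq (GRCr8) by gene ID and 2 did not, with 119 protein-coding and 6 pseudogenes. Figures used matplotlib 3.10.9 in Python 3.11.15. The fits were tested on simulated data.

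The members, lists and tests were chosen with earlier results of these data known. Named genes are the 10 largest kit differences in each direction, the 5 largest changes past the threshold in each other comparison or else the 3 with the smallest p, Rps16, reference genes, stalk proteins, disease or signalling genes and paralogues, the 5 highest and lowest in mean and in residual SD, and up to 4 genes of each other list. Rps18l5, Rpl41 and Rpl3l are also described for what their values showed, and Eif4ebp2, Tsc1 and Tsc2 are added beside the other mTOR genes. Alternatives covered the kit term, groups and kits fitted, filters, probesets, centring, thresholds, a lymphoid covariate and leaving out each rat. Replicates are separate animals.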

Additional observations from a re-analysis of the deposited data

Results flagged for a closer look

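In groups of 5 rats, a value far from the other 4 was looked for in 70 sets (the ribosomal protein median and 6 single genes in 10 groups) after the kit difference was removed. The gap was above the 95% limit of Dixon's test in 4 sets, and chance gives about 1 in 20. Rpl3l stood out in 3 of them. It was 8.17 in DEP_null_27, against 5.48 to 5.84 in the other DEP nulliparous rats, 7.38 in OIL_null_431, against 5.50 to 5.89 in the other OIL nulliparous rats, and 7.38 in TCS_par_243, against 5.53 to 6.04 in the other TCS parous rats. These rats are 3 of the 4 with a skeletal muscle score over 3. The median of the 105 ribosomal protein genes was 11.41 in MPB_null_131, against 11.15 to 11.22 in the other MPB nulliparous rats.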

How the results depend on the processing

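The kit count of 100 genes stayed within 1.5 times under every alternative, but 84.9% of all genes were called in the main fit. Shares over all genes under the alternatives are not given here, so this cannot be called particular to these genes. The median difference of 0.99 moved by over the SD between rats (0.15), to 0.80 with no intensity filter and 1.17 with each array centred. With centring, Rpl4 (0.0133) and Rpl29l4 (0.0316) changed sign. Without a kit term the median change was 0.46 in DEP parous and 0.47 in DEP nulliparous rats, and the count in DEP nulliparous rats was 0, as over all genes. The DEP nulliparous count of 1 was also 0 in Zymo rats only, with the lymphoid score as a covariate and at an adjusted p under 0.05 with no fold rule, and 0 to 2 when each rat was left out in turn. Over all genes these settings gave 1, 43 and 0 calls, and leaving out a rat gave 0 to 684. In a model of all 50 rats it was 2 (Rps18l5 0.76, Rplp0 -0.60), against 2.55% of all genes, and 1 in DEP parous rats (Rpl3l 0.76), against 7.63%. In TCS nulliparous rats the Zymo rats alone, 2 TCS and 2 OIL, gave 2 genes (Rps4y2 -0.66, Rpl3l -1.01), among 1517 over all genes (11.3%). For parity 2 genes (Rpl36l1 and Rps18l3) had an adjusted p under 0.05 with no fold rule, against 9.42% of all genes. The lymphoid slope was called for 19 of the 105 genes in all rats (48.1% of all genes). In Zymo rats only it was called for 22 of them (21.4% of all genes), and in Promega rats only for 3 (31.5% of all genes). The share of ribosomal protein genes thus lay near that of all genes in Zymo rats, and below it in Promega rats and in all rats. Rps3a in TCS parous rats changed sign in Zymo rats only (0.018). The DEP rats of the Promega kit number 1 per group, so that setting gives values and no calls there. Leaving out a rat moved no median change of an exposure by more than the SD between rats. No paired analysis was possible because the labels give each rat its own number. Probesets shared by near-identical copies, and dim Promega signals, limit what single genes can show.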

Other observations

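Read by mean signal, the kit difference was smallest among the brightest ribosomal protein genes. The 15 genes with a mean of 13 or more had a median difference of 0.41 and a highest of 1.46, against a median of 1.48 for the 21 genes with a mean of 10 to 12 and 1.09 for the 27 with a mean under 8. The highest value on any array was 14.47. This grouping was made after the values had been seen and was given no test.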
